A study of Homo sapiens with 12 samples.

Results

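ID1, ID2, ID3, ID4, HES1 and HEY1 are small helix-loop-helix proteins that repress transcription, and their mRNA levels were followed in Hs 578T cells, a triple-negative breast cancer (TNBC) line of the mesenchymal stem-like subtype. The 6 genes were chosen by symbol, as the 4 members of the ID family and 2 members of the HES and HEY families, among 55242 genes counted by RNA-seq. They were chosen with earlier results of these data known, so counts of members beside shares of all genes are descriptions and not tests. All cells had been transduced with a lentiviral vector, for exogenous full-length NRF2 (NRF2 cells) or for GFP as the control (GFP cells), and were then grown for 8 h in medium with 0.8 mM l-cystine (Cyss) or in the same medium without Cyss. Both media held 0.2 mM methionine, 2 mM glutamine and 10% serum. With 3 libraries in each of the 4 groups, 12 libraries were compared. The study asked with these libraries which transcripts follow Cyss and which of them follow NRF2. The groups model 1 cell line with a transduced control and no untransduced one, and the labels do not say whether the 3 libraries of a group came from separate cultures, so the p-values measure the spread between these libraries, which may be technical.

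Basic helix-loop-helix (bHLH) activators bind DNA as dimers, usually with an E protein such as TCF3, TCF4 or TCF12. ID proteins have the helix-loop-helix but no basic region: they take up E proteins into dimers that cannot bind DNA and so keep cells from differentiating. ID1, ID2 and ID3 are classical targets of bone morphogenetic protein (BMP) signaling through SMAD1, SMAD5 and SMAD9. HES1 and HEY1 do bind DNA and recruit Groucho (TLE) and other co-repressors, and they are classical targets of Notch, whose cleaved intracellular part acts with RBPJ and MAML proteins.

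The promoters of the genes that the results turn on are shown first, since 3 of them, ID1, ID2 and ID3, moved together. RefSeq sequences on GRCh38.p14 were matched by symbol for 5 of the 6 genes. Each of those below holds the 250 bases before the transcription start, written in the direction of the gene. Capitals mark the CCAAT box in ID1 and ID2 (CCAAT, or ATTGG where it lies on the other strand), the SMAD box CAGAC in ID3, and the core of the RBPJ site, TGGGAA, in HES1.
ID1, chr20:31605039-31605288, plus strand: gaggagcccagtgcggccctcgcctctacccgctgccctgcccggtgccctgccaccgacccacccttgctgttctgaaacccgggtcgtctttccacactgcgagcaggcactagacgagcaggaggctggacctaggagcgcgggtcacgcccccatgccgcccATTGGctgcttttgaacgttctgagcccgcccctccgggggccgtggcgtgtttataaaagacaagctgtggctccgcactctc
ID2, chr2:8681806-8682055, plus strand: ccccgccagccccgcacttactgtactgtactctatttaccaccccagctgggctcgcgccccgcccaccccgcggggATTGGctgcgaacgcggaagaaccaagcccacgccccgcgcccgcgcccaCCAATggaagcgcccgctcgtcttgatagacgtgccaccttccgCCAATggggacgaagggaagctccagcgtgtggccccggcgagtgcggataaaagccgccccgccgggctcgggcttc
ID3, chr1:23559502-23559751, minus strand: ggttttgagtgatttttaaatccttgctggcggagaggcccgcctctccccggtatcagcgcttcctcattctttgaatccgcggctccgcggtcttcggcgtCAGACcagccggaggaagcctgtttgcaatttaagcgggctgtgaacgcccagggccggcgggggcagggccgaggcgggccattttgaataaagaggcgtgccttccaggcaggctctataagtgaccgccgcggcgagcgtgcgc
HES1, chr3:194135898-194136147, plus strand: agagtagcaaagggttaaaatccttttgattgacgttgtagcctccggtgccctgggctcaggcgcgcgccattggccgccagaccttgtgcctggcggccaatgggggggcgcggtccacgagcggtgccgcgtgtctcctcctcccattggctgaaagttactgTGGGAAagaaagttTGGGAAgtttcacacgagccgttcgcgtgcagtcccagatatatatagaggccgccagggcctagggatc

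Motifs were searched on both strands. The CCAAT box, which 32% of 35116 promoters of the same length hold, had 1 match in ID1, 3 in ID2, 3 in HES1 and 1 in ID4, with none in ID3. The SMAD box had 1 match in each of ID3, ID4 and HES1, against 38% of all promoters with a match, and the GC-rich SMAD site GGCGCC, held by 16.4%, had none in the 5 promoters. The SMAD box of ID3 lies 147 bases before the start and shares bases with a match of the cyclic AMP response core TGACG, which 21.2% of all promoters hold. HES1 had 2 RBPJ cores, starting 84 and 70 bases before the start, and the other 4 promoters had none, against 20.8% of all promoters. The N box CACNAG, to which HES1 itself binds, had 3 matches in the HES1 promoter and 1 in ID1, against 32% of all promoters. The E box CANNTG had 1 match each in ID2 and ID4, against 61.8%. The core of the antioxidant response element bound by NRF2, TGACNNNGC, and the ATF4 site TGATGNAA had no match in the 5 promoters, against 10.9% and 3.14% of all promoters. These matches describe letters within 250 bases and do not show binding.

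Between 27334061 and 44734611 reads were counted on genes per library. NFE2L2, the gene of NRF2, lay between 108.6 and 138.6 TMM-normalized CPM (reads of a gene scaled to a common library size) in the 6 GFP libraries and between 196.4 and 249.9 in the 6 NRF2 libraries, as the labels say, with endogenous and exogenous mRNA counted together. Of 8 ATF4 targets, which mark amino acid starvation, 7 were called higher in GFP cells and 6 in NRF2 cells when Cyss was left out. Of 8 NRF2 targets 7 and 5 were called lower in turn. None of the 10 mesenchymal markers averaged under 0.3 CPM, although SNAI1 came close, with group means of 0.33 to 0.56 CPM. Of 11 epithelial markers, 8 averaged under 0.3 CPM, EPCAM and CDH1 among them. The summed level of the epithelial markers, carried mostly by KRT18, moved with the medium: it was 28.3 to 31.6 CPM with and 40.1 to 47.5 CPM without Cyss in NRF2 cells, and 33.7 to 37.8 and 40.2 to 50.7 CPM in GFP cells, and its part in the results was not tested. Of 6 endothelial markers, 4 averaged under 0.3 CPM. The summed level of the blood cell markers was between 1.62 and 2.68 CPM over all libraries, with 2 of 6 at 0 in every library. One library, GFP without Cyss replicate 3, lay apart from its group, at 4.67 on the first principal component (36.5% of the variance) against -7.41 and -5.07 for the other libraries of the group. It was shifted toward the libraries of NRF2 cells without Cyss, which lay at 20.6, 20.7 and 22.8 on that component. A second, NRF2 without Cyss replicate 1, was at 7.86 on the second component (17.4% of the variance) against 0.924 and -0.794 in its group, and had the largest share of reads outside annotated genes, 7.84% against 5.82 to 6.69% in the other libraries. The changes of ID1, ID2 and ID3, and those results on other genes given here whose call changes, are also given without these libraries.

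Scaled to length, ID3 and ID1 had the highest levels of the helix-loop-helix genes listed. Mean levels over the 12 libraries, as RPKM (CPM per kilobase of exon), were 71.4 for ID3, 29.7 for ID1 and 21.6 for ID2. The ranges of ID1 and ID2 over the libraries overlapped, although ID1 was above ID2 within each of the 12 libraries, and the range of ID3 lay above both. HES1 followed at 12.5 RPKM and HEY1 at 1.26. Of the E proteins that ID proteins take up, TCF3 averaged 23.9 RPKM, between ID2 and ID1. TCF12 at 12.8 and TCF4 at 4.62 RPKM stayed below every library of ID1, ID2 and ID3 (highest 13.3 for TCF12, lowest 14.1 for ID2). RPKM divides by all merged exons of a gene, 29166 bases for TCF4 against 1233 for ID1. Among the other genes of the HES and HEY families, HES4 averaged 4.18, HES6 3.02 and HEY2 1.75 RPKM. Lengths are the merged exons of GENCODE 44 on GRCh37, the hg19 build of the reads, and not the annotation used for counting. On that build, ID1 lies on chromosome 20 (30193086 to 30194318), ID2 on chromosome 2 (8818975 to 8824591), ID3 on chromosome 1 (23884417 to 23885992), HES1 on chromosome 3 (193853937 to 193856521) and HEY1 on chromosome 8 (80674606 to 80680092). The exons of ID2 overlap those of ID2-AS1 on the other strand, and the counting ignored strand, so their reads cannot be told apart.

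**Figure D1:**
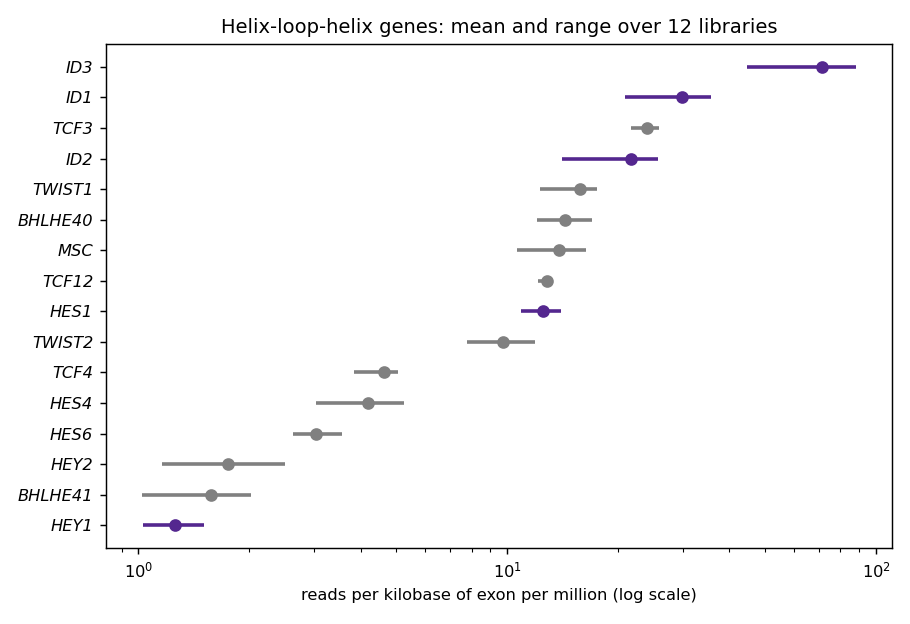
Levels per length of the members, the other HES and HEY genes and the E proteins and other bHLH factors listed, where the mean is at least 1 RPKM. Points give the mean over the 12 libraries and lines the range from the lowest to the highest library, on a log scale, with ID1, ID2, ID3, HES1 and HEY1 in purple and other genes in grey. ID3 stands highest at 71.4 RPKM and HEY1 lowest at 1.26.

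ID1, ID2 and ID3 were lower in NRF2 cells without Cyss than in each of the other 3 groups. ID3, the most abundant, was counted at 113.3, 114.1 and 114.6 CPM in NRF2 cells with Cyss and at 76.7, 72.06 and 66.65 CPM without Cyss. In GFP cells it was at 116, 127.3 and 117.8 CPM with Cyss and at 127.6, 131.9 and 103 CPM without Cyss. The 3 libraries of NRF2 cells without Cyss thus lay below all 9 others, as in 7.65% of 17674 genes. In bulk RNA, fewer cells that express a gene and less RNA of it per cell cannot be told apart.

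ID1 gave the same order. Its 3 libraries of NRF2 cells were at 40.78, 38.24 and 39.92 CPM with Cyss and at 29.72, 25.72 and 26.32 CPM without Cyss. In GFP cells, ID1 was at 38.76, 41.18 and 39.09 CPM with Cyss and at 40.26, 44.03 and 35.82 CPM without Cyss. Again no library of NRF2 cells without Cyss reached any library of the other groups, and within NRF2 cells alone such a separation downward was found in 18.5% of all genes.

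ID2 was at 53.7, 53.55 and 56.4 CPM in NRF2 cells with Cyss and at 35.55, 33.2 and 31.21 CPM without Cyss. In GFP cells it was at 55.04, 56.69 and 50.72 CPM with Cyss and at 53.64, 52.76 and 42.17 CPM without Cyss. For ID2 too, the NRF2 libraries without Cyss were below all others. The lowest GFP value of ID2 came from GFP without Cyss replicate 3, which also gave the lowest GFP values of ID1 and ID3.

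**Figure D2:**
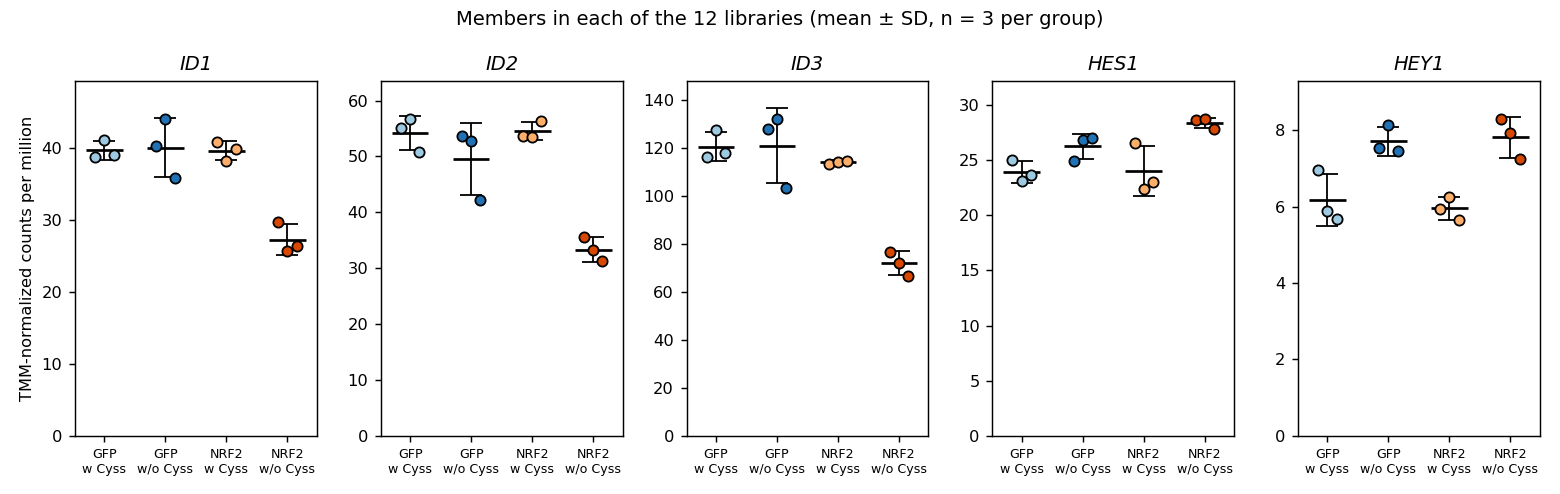
TMM-normalized CPM of ID1, ID2, ID3, HES1 and HEY1 in each of the 12 libraries, by group (w, with; w/o, without). Points are libraries, horizontal bars the mean and error bars the SD of 3 libraries. For ID1, ID2 and ID3, the 3 libraries of NRF2 cells without Cyss lie below all others, and for HES1 and HEY1 the groups without Cyss have the higher means.

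In NRF2 cells, Cyss deprivation lowered all 3 genes. A gene was called when edgeR's quasi-likelihood test gave a Benjamini-Hochberg adjusted p under 0.1 over all genes tested and a log2 fold change (log2FC) above 0.32 in size. ID2 fell by 39% (log2FC -0.71, SE 0.057, adjusted p = 4.36e-07), ID3 fell by 37.1% (log2FC -0.67, SE 0.053, adjusted p = 4.05e-07) and ID1 fell by 31.3% (log2FC -0.54, SE 0.063, adjusted p = 1.90e-05). Of the 5 members that passed the filter on low counts, 3 were called lower and 1 higher, against 5.14% of 17266 genes called lower and 6.81% called higher. The members were chosen with earlier results known, so this count is a description and tests nothing. Without NRF2 without Cyss replicate 1 all 3 calls were kept, at -0.76 for ID2, -0.72 for ID3 and -0.61 for ID1. For a single gene, the exact two-sided permutation test over 3 against 3 libraries cannot go below 0.1, the value it gave for ID3.

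In GFP cells the same change of medium called no ID gene. The log2FC was 0.01 for ID1 (95% interval -0.13 to 0.15, adjusted p = 0.955), -0.13 for ID2 (-0.30 to 0.04, adjusted p = 0.399) and 0.00 for ID3 (-0.16 to 0.16, adjusted p = 0.987). The intervals of ID1, ID2 and ID3 in GFP cells lay above those in NRF2 cells, whose upper bounds were -0.41, -0.59 and -0.55. Over all genes in GFP cells, 1.57% were called higher and 0.533% lower. Without GFP without Cyss replicate 3, the log2FC in GFP cells was 0.09 for ID1, -0.03 for ID2 and 0.11 for ID3, and none of them was called.

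The difference between the responses was tested as an interaction over the 12 libraries (adjusted p under 0.1, with no fold threshold). The Cyss response of NRF2 cells was below that of GFP cells by a log2 difference of -0.67 for ID3 (SE 0.10, adjusted p = 7.84e-04), -0.55 for ID1 (SE 0.096, adjusted p = 0.00178) and -0.58 for ID2 (SE 0.10, adjusted p = 0.00229). These were 3 of the 5 members tested, against 6.13% of 17674 genes called lower and 8.97% called higher in the interaction. As the members were chosen with earlier results known, this count too is no test. Leaving out any 1 of the 12 libraries kept all 3 calls, with ID3 between -0.77 and -0.61, ID1 between -0.63 and -0.49 and ID2 between -0.69 and -0.52. The values farthest from 0 came from the fits that left out GFP without Cyss replicate 3.

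NRF2 cells did not differ detectably from GFP cells in the ID genes while Cyss was present. With Cyss, the log2FC of NRF2 against GFP cells was 0.00 for ID1 (95% interval -0.10 to 0.10), 0.01 for ID2 (-0.09 to 0.11) and -0.08 for ID3 (-0.17 to 0.01, adjusted p = 0.306). The 3 ID3 libraries of NRF2 cells were below the 3 of GFP cells, as in 12.1% of all genes in this comparison, and the test did not call the difference. None of the 5 members was called with Cyss, where 1.36% of all genes were called higher and 0.201% lower. Without Cyss, ID3 was 1.7-fold lower in NRF2 than in GFP cells (log2FC -0.76, SE 0.083, adjusted p = 2.84e-04), ID2 1.5-fold lower (-0.59, SE 0.085, adjusted p = 9.65e-04) and ID1 1.48-fold lower (-0.57, SE 0.080, adjusted p = 7.97e-04). Here 4.09% of all genes were called lower and 5.98% higher. Without GFP without Cyss replicate 3 the 3 calls were kept, at -0.86 for ID3, -0.69 for ID2 and -0.64 for ID1, and without NRF2 without Cyss replicate 1 they were kept at -0.81, -0.63 and -0.63. This comparison shares its NRF2 libraries without Cyss with the Cyss response of NRF2 cells, so their values are not independent.

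**Figure D3:**
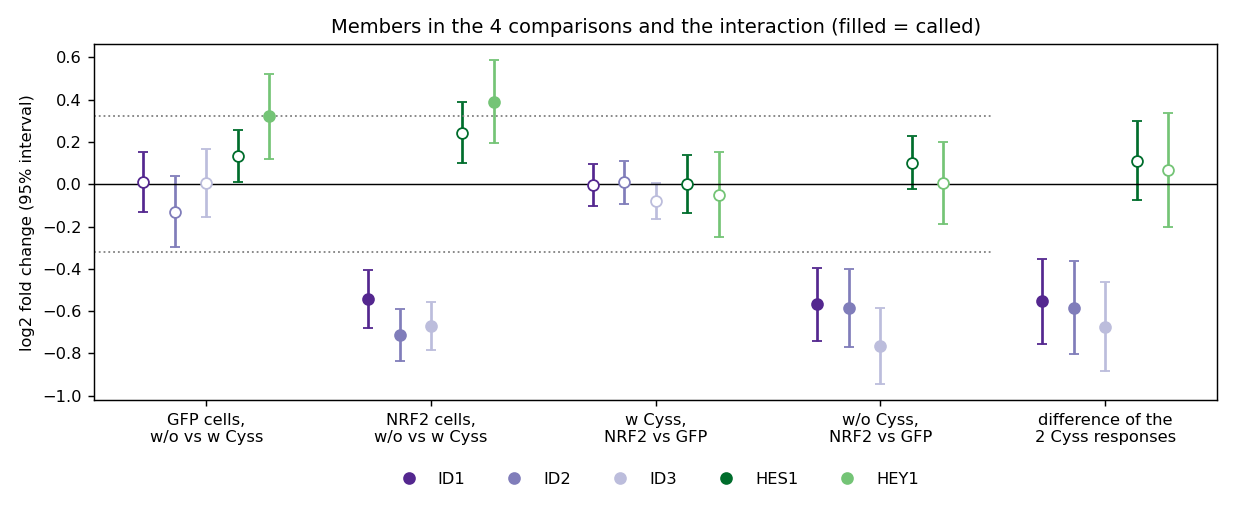
Log2 fold changes of the 5 members tested in the 4 comparisons, and the log2 difference between the Cyss responses of NRF2 and GFP cells. Bars are 95% intervals of the fit, filled points are called and dotted lines mark the fold threshold of 0.32, which the interaction does not use. ID1, ID2 and ID3 lie near 0 in GFP cells and with Cyss, and between -0.54 and -0.76 in the other two comparisons.

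HES1 and HEY1 did not follow the ID genes. HEY1, a Notch target, was at 5.95, 6.258 and 5.647 CPM in NRF2 cells with Cyss and at 8.293, 7.918 and 7.242 CPM without Cyss. In GFP cells it was at 6.955, 5.88 and 5.674 CPM with Cyss and at 7.535, 8.143 and 7.459 CPM without Cyss. In either cell population, every library without Cyss was above every library with Cyss, as in 19.3% of all genes in NRF2 cells and 11.5% in GFP cells.

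HEY1 rose by 31% in NRF2 cells (log2FC 0.39, SE 0.092, adjusted p = 0.00695), and by a log2FC of 0.35 without NRF2 without Cyss replicate 1. In GFP cells it was called higher by 25% (log2FC 0.32, SE 0.093, adjusted p = 0.0841), at the very edge of the fold threshold. That call was lost in 5 of the 6 fits that left out 1 library, with log2FC between 0.27 and 0.42, and without GFP without Cyss replicate 3 the log2FC was 0.35 with an adjusted p of 0.124. Of these fits, the one without GFP with Cyss replicate 1 kept it. The interaction of HEY1 was 0.07 (95% interval -0.20 to 0.34, adjusted p = 0.786). NRF2 and GFP cells gave a log2FC of HEY1 of -0.05 with Cyss (-0.25 to 0.15) and 0.01 without Cyss (-0.19 to 0.20).

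HES1, which acts in Notch feedback and represses its own promoter, was at 26.59, 22.42 and 23.01 CPM in NRF2 cells with Cyss and at 28.62, 28.75 and 27.88 CPM without Cyss. In GFP cells it was at 25.06, 23.08 and 23.71 CPM with Cyss and at 24.96, 26.89 and 26.99 CPM without Cyss. The groups overlapped in GFP cells. In NRF2 cells every library without Cyss was above every library with Cyss, as in 19.3% of all genes, and replicate 1 with Cyss was the highest of its group. In NRF2 cells the log2FC was 0.24 (SE 0.068, adjusted p = 0.0185), under the fold threshold. Without NRF2 with Cyss replicate 1 it was 0.32 and passed the threshold. In GFP cells HES1 gave 0.13 (95% interval 0.01 to 0.25, adjusted p = 0.238), and the interaction was 0.11 (-0.07 to 0.30, adjusted p = 0.469). Every library of NRF2 cells without Cyss was above every library of the other 3 groups, as in 9.35% of 17674 genes. NRF2 against GFP cells gave a log2FC of HES1 of 0.10 without Cyss (-0.02 to 0.23, adjusted p = 0.241), which was not called. With Cyss it was 0.00 (-0.13 to 0.14).

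ID4, the fourth ID gene (GRCh37 chromosome 6, 19837601 to 19842428), was at the limit of detection. Only 1 read in NRF2 with Cyss replicate 2 and 2 reads in NRF2 without Cyss replicate 1 were counted, with 0 in the other 10 libraries. A count of 0 allows up to 3 reads, or 0.0666 to 0.109 CPM depending on the library, counting error only. ID4 did not pass the filter and was not tested.

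Genes of the BMP pathway moved in both directions in NRF2 cells without Cyss. Over all genes in NRF2 cells, 6.81% were called higher and 5.14% lower, shares that stand beside each list below. BMP2, a ligand that induces ID genes, rose from 15.27, 15.88 and 14.85 CPM with Cyss to 49.89, 53.46 and 66.45 CPM without Cyss (log2FC 1.88, SE 0.092, adjusted p = 3.02e-09). BMP2 was not called in GFP cells, at 14.18, 17.04 and 25.72 CPM without Cyss, the highest being replicate 3 (log2FC 0.29, adjusted p = 0.347). Without that replicate BMP2 gave 0.0046 in GFP cells (adjusted p = 0.986). Its interaction was 1.60 (adjusted p = 6.02e-04), and 1.88 without that replicate. Of 5 ligands tested among 10 listed, BMP2 and BMP6 were called higher and BMP4 lower in NRF2 cells (log2FC 1.88, 1.69 and -0.52). Among 8 extracellular antagonists tested of 12, FST (0.87) and BMPER (0.44) were called higher, and CHRDL1 (-0.34) was called lower. FST was also called higher in GFP cells (0.46, adjusted p = 0.00718). NOG, which encodes noggin, was near 0. Of 11 receptors and SMADs tested of 12, BMPR1B was higher (0.45) and SMAD9 lower (-0.36), while SMAD1, SMAD5 and SMAD4, the other carriers of the signal, were at 0.01, 0.07 and -0.01. SMAD9 averaged 4.617 CPM with and 3.586 CPM without Cyss in NRF2 cells, against 3.752 and 3.653 CPM in GFP cells.

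Of the 9 genes of BMP feedback, 3 were called lower and 2 higher in NRF2 cells without Cyss. SMAD6, an inhibitory SMAD that BMP induces, was called lower (-0.67), as were ATOH8, a bHLH gene induced by BMP (-0.59), and BAMBI, a decoy receptor (-0.49). Unlike the ID genes, BAMBI had a higher mean in NRF2 than in GFP cells with Cyss, 38.43 against 32.77 CPM. Without Cyss its means were 27.32 and 29.8 CPM in turn. SMURF2, a ubiquitin ligase of SMADs and receptors, was called higher (0.88), as was SMAD7, an inhibitory SMAD that TGF-β also induces (0.42). The median log2FC of the 9 genes was 0.146 against -0.0116 over all genes tested. None of the 9 was called in GFP cells. All 5 had an interaction with an adjusted p under 0.1, of -0.68 for SMAD6, -0.61 for ATOH8, -0.36 for BAMBI, 0.66 for SMURF2 and 0.40 for SMAD7. In total the interaction called 4 of the 9 higher and 3 lower, against 8.97% and 6.13% of all genes. Without GFP without Cyss replicate 3 these counts were also 4 and 3, and without NRF2 without Cyss replicate 1 they were 3 and 3, SKIL no longer being called.

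**Figure D4:**
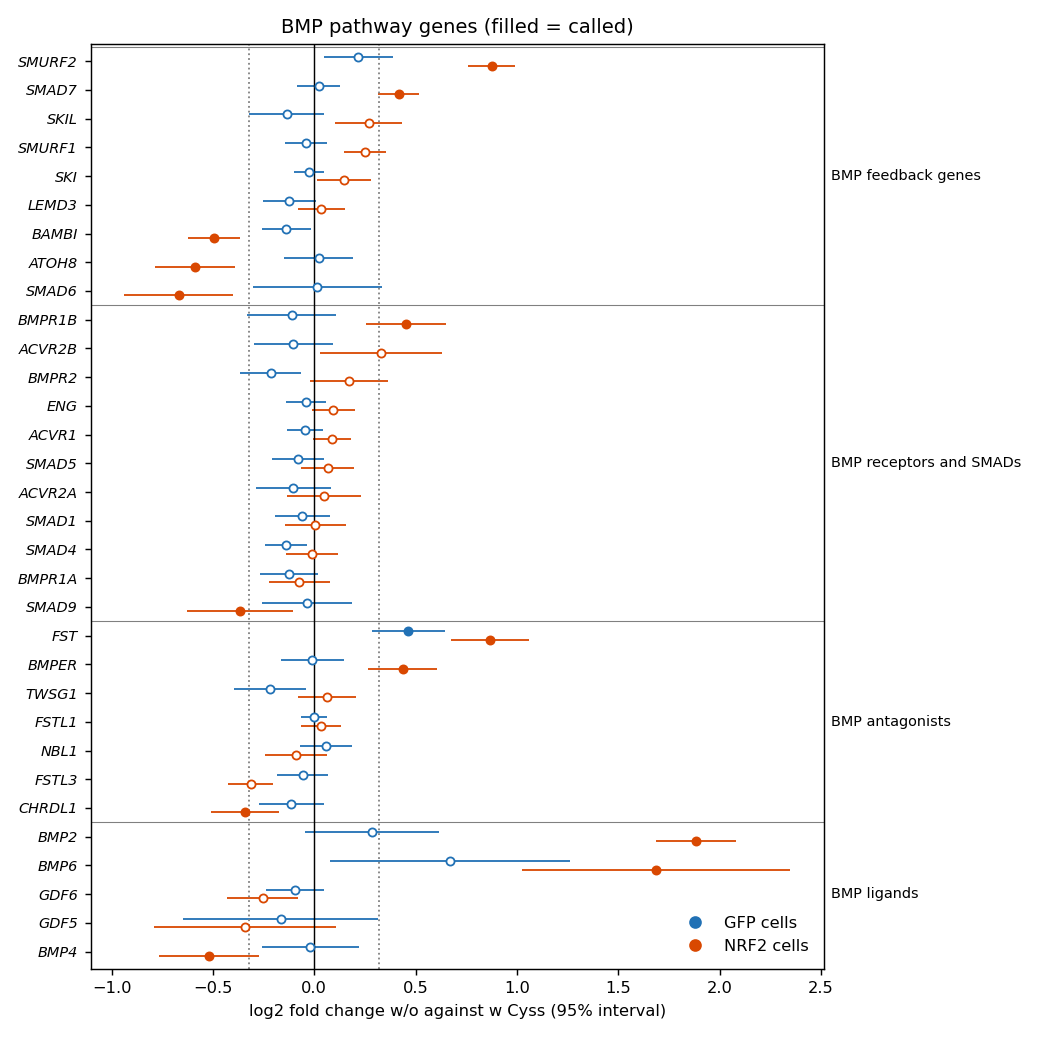
Log2 fold changes without against with Cyss of BMP pathway genes, in GFP cells (blue) and NRF2 cells (orange). Bars are 95% intervals, filled points are called and dotted lines mark the fold threshold of 0.32. In NRF2 cells BMP2 lies at 1.88 and SMAD6, ATOH8 and BAMBI between -0.67 and -0.49, and in GFP cells FST is the only filled point.

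Among Notch pathway genes upstream of HES1 and HEY1, 5 of 27 tested were called in NRF2 cells. Over all genes, 6.81% were called higher and 5.14% lower there, so this small count is given as a description only. JAG1, the ligand with the highest RPKM, was at 238.9, 239.8 and 234.9 CPM in NRF2 cells with Cyss and at 324.5, 315.3 and 302.3 CPM without Cyss (log2FC 0.40, adjusted p = 1.18e-05). In GFP cells it gave 0.23 (adjusted p = 0.00215), under the fold threshold. Without Cyss, JAG1 averaged about the same in NRF2 and GFP cells, 314 and 315.7 CPM. With Cyss it averaged 237.9 CPM in NRF2 and 268.2 CPM in GFP cells, so the larger rise of NRF2 cells began at a lower level. NOTCH2, the receptor with the highest RPKM, was called higher in NRF2 cells (0.46), and JAG1 and NOTCH2 were the called genes among 7 ligands and receptors tested of 9. Of 20 genes of Notch processing and its nuclear complex tested of 22, NUMB, an inhibitor of Notch, rose (0.66), as did MAML3, a co-activator (0.49), and LFNG, which modifies the receptor, fell (-0.54). RBPJ gave 0.22 (adjusted p = 0.00218), under the fold threshold. In GFP cells no gene of these 2 lists was called.

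Other repressors of the family did not move as one. Of the 5 that passed the filter among 11 listed, BHLHE40, a repressor that responds to stress and the circadian clock, was called higher in NRF2 cells (0.39) and HEY2 lower (-0.41). BHLHE40 also rose in GFP cells, by a log2FC of 0.28 (adjusted p = 0.00379), under the fold threshold. HEY2 was at 4.753, 4.654 and 4.896 CPM with Cyss and at 4.4, 3.253 and 3.121 CPM without Cyss in NRF2 cells, and the groups did not overlap. Such a separation downward was found in 18.5% of all genes. In GFP cells HEY2 gave 0.32 (adjusted p = 0.172) and was called higher, at 0.44 (adjusted p = 0.0459), without GFP without Cyss replicate 3. Its interaction was -0.73 (adjusted p = 0.0202), whereas HEY1 had an interaction of 0.07 that was not called. HES4 and HES6 were not called in either cell population. HES6 had an interaction of -0.41 (adjusted p = 0.0592), which was lost without GFP without Cyss replicate 3 (adjusted p = 0.114) and without NRF2 without Cyss replicate 1 (adjusted p = 0.11). When Cyss was left out, HES4 was called lower in NRF2 cells than in their GFP controls (-0.41, adjusted p = 0.0411), and this call was lost without either library (adjusted p = 0.115 and 0.125). BHLHE41 was called lower in NRF2 cells only without NRF2 without Cyss replicate 1 (-0.41, adjusted p = 0.0362). HES2, HES3, HES5, HES7, HEYL and HELT did not pass the filter.

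The E proteins that ID proteins take up were not called in NRF2 cells when Cyss was left out. The log2FC was 0.02 for TCF3, -0.15 for TCF4 and 0.03 for TCF12, and the interactions were 0.07, -0.04 and 0.00. In GFP cells TCF4 gave -0.11 (adjusted p = 0.24). Without Cyss, TCF3 was at 156.3 to 163.3 CPM in NRF2 and 137.9 to 148.3 CPM in GFP cells. Such a separation upward was found in 19.4% of all genes. With Cyss, TCF3 was at 151.3 to 164.1 and 146 to 150.5 CPM in turn, a separation found in 12.6%. Of the 6 E proteins and other bHLH factors tested among 19 listed, MSC (musculin, -0.52) and TWIST1 (-0.38), both bHLH factors of mesenchymal cells, were called lower. TWIST2, of the same list, went the other way without being called, from 16.84 CPM on average with Cyss to 19.6 CPM without. In GFP cells TWIST2 averaged 14.26 CPM with and 15.16 CPM without Cyss. TWIST1 was at 34.9, 32.89 and 34.86 CPM with Cyss and at 29.75, 24.55 and 24.7 CPM without Cyss. Among 12 co-repressors tested of 13, TLE4, a Groucho protein, was called lower (-0.34), and HDAC1, HDAC2 and SIN3A gave -0.06, 0.10 and 0.07. SCX was not analysed here.

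**Figure D5:**
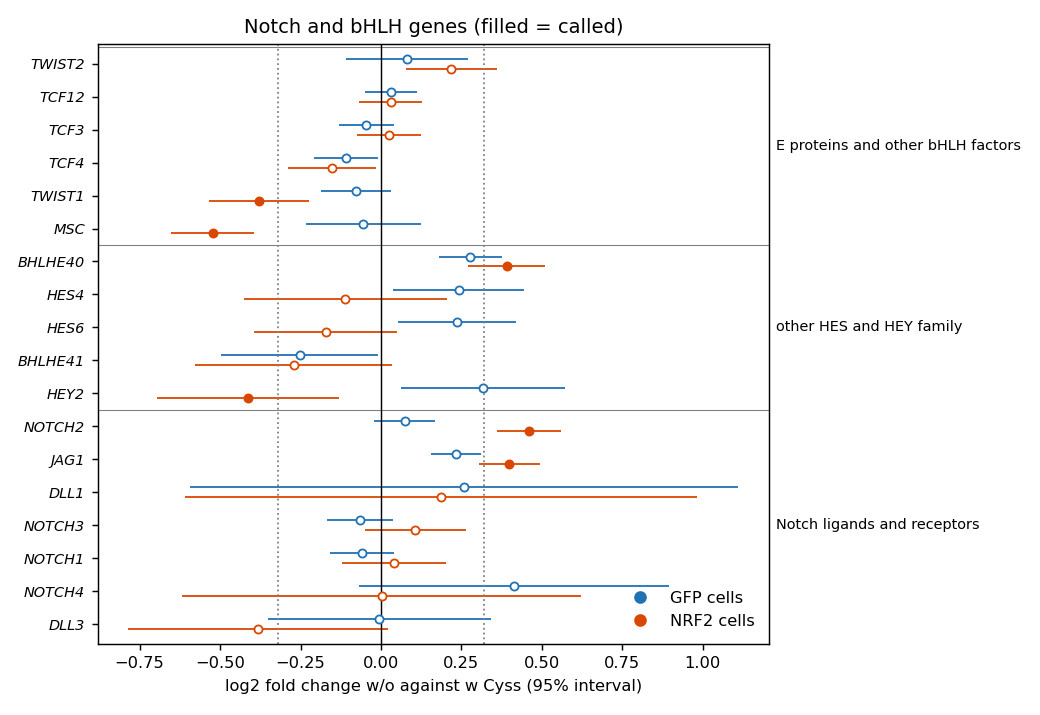
Log2 fold changes without against with Cyss of Notch ligands and receptors, of other HES and HEY genes and of E proteins and other bHLH factors, in GFP cells (blue) and NRF2 cells (orange). Bars are 95% intervals, filled points are called and dotted lines mark the fold threshold of 0.32. NOTCH2, JAG1 and BHLHE40 are filled above 0 and HEY2, MSC and TWIST1 below 0, all in NRF2 cells. In GFP cells JAG1 and BHLHE40 lie at 0.23 and 0.28, under the fold threshold.

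Across the 12 libraries the ID genes varied together. Pearson's r of log2 CPM was 0.982 for ID1 and ID3, 0.961 for ID2 and ID3, and 0.957 for ID1 and ID2, whereas HES1 gave -0.659, -0.786 and -0.695 with ID1, ID2 and ID3. HES1 and HEY1 gave 0.783. Among 13528 genes that averaged 50 or more normalized counts, ID3 was the gene most like ID1, followed by COL3A1 (0.968) and PPAPDC1A (0.968). ID2 was most like ZNF488 (0.984), HOXA5 (0.978) and CXXC5 (0.977), HES1 most like NHS (0.932), AMZ1 (0.930) and SRSF6 (0.927), and HEY1 most like CCNG2 (0.964), APOL6 (0.942) and AFF3 (0.941). For ID3, PPAPDC1A (0.979) and DACT1 (0.978) followed ID1. The points share their libraries and 4 groups, so these coefficients are descriptions and carry no test.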

How the data were processed

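Per the labels and the study's methods, RNA from 12 samples was made into unstranded TruSeq libraries and sequenced single end. The authors mapped the reads to hg19 with TopHat2 2.1.0, counted exon reads with HTSeq 0.11.2 without regard to strand, and deposited raw counts per gene symbol. The annotation behind the counts is not given in the sources used here. The 5 HTSeq counters that name no gene (15.9 to 17.1% of the reads of a library) and 523 genes named as rRNA (0.304 to 0.366% of gene reads) were left out.

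Counts were analysed in R 4.3.3 with edgeR 4.0.16. TMM factors were computed over the 6 libraries of each pair of groups. A gene entered the quasi-likelihood test when its normalized counts averaged 10 or more in one of the groups, and p-values were adjusted by Benjamini-Hochberg over all such genes. The thresholds for a call, 0.1 for the adjusted p and 0.32 for the size of the log2FC, are those of the study's comparisons. The study's methods also name 0.05 and used DESeq2, and each was run as an alternative (DESeq2 1.42.0). The interaction used all 12 libraries, an adjusted p under 0.1 and no fold threshold. CPM values are TMM-normalized over the 12 libraries, and intervals of log2FC are those of the fit. Lengths came from GENCODE 44 on GRCh37, found for 175 of 177 listed genes, and promoters from RefSeq on GRCh38.p14. Python 3.11.15 and matplotlib 3.10.9 drew the plots. The fits were tested on simulated counts with known changes.

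The 6 genes and all lists were chosen with earlier results of these data known. The text names every member and the 3 genes most like each member. For NRF2 cells without against with Cyss, it names the called genes of the BMP, Notch, HES and HEY, other bHLH and co-repressor lists. Calls of these lists in the other comparisons and in the interaction are named only in part. Those of the marker lists and of the ATF4 and NRF2 targets are not given by name. Other genes named, for context, are the uncalled E proteins, TWIST2, SMADs, RBPJ, co-repressors, HES and HEY genes, NOG and single markers. They were chosen after their values were seen. One listed gene is not reported here. Replicates of a group differed by more than sampling noise (chi-square per degree of freedom 2.22 to 13). Alternatives were other normalizations, filters and thresholds, DESeq2, the replicate number as a block, all 12 libraries in the fit and leaving out each library. TMM before the filter and values of the lists and their genes without 2 single libraries were added after seeing the data.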

Additional observations from a re-analysis of the deposited data

Results flagged for a closer look

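The Cyss responses of NRF2 and GFP cells differed by the interaction test for 3 members. The log2 difference was -0.55 for ID1 (SE 0.096, adjusted p = 0.00178), -0.58 for ID2 (SE 0.10, adjusted p = 0.00229) and -0.67 for ID3 (SE 0.10, adjusted p = 7.84e-04), each gene lower in all 3 libraries of NRF2 cells without Cyss than in all 9 others, as in 7.65% of all genes. BMP2, BMP6, SMURF2 and NUMB were highest of their group, and ID1, ID2, ID3 and SMAD6 lowest, in GFP without Cyss replicate 3. The part of this library in these differences was not tested beyond leaving it out, which kept the 3 calls.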

How the results depend on the processing

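The calls of ID1, ID2 and ID3 in NRF2 cells, between NRF2 and GFP cells without Cyss and in the interaction were kept under every alternative and without any single library. Over the alternatives that kept all libraries, ID3 ranged from -0.73 to -0.67 in NRF2 cells. HEY1 in GFP cells was no longer called, so that 0 members were called higher, with scaling by library size, DESeq2's Wald test, no filter on low counts, an adjusted p under 0.05 or TMM before the filter. Leaving out single libraries gave 0 to 1 members called higher there, and 1 to 2 in NRF2 cells. Without the fold threshold, 2 members (HEY1 and HES1) were called higher in NRF2 cells. ID4 had no value under any fit that filtered low counts.

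Sign changes were limited to values that were not called. In GFP cells ID3 was at -0.0024 by library size, -0.0084 without the filter or with TMM before it, and -0.0015 with the replicate block, and ID1 at -0.0018 without the filter or with TMM before it. With Cyss, NRF2 against GFP cells, HES1 was at -0.00081 with DESeq2's size factors, -0.00026 with its Wald test, -0.011 without the filter or with TMM before it, -0.0012 with rRNA genes kept and -0.00034 with the replicate block, ID1 at 0.0043 by library size and ID2 at -0.0027 without the filter or with TMM before it. HEY1 without Cyss was at -0.026 by library size. With single libraries left out, ID1 and ID3 in GFP cells ranged from -0.062 to 0.085 and from -0.063 to 0.11, and with Cyss ID1, ID2, HES1 and HEY1 ranged from -0.026 to 0.023, -0.037 to 0.042, -0.079 to 0.047 and -0.10 to 0.041. HEY1 ranged from -0.031 to 0.061 without Cyss and from -0.023 to 0.12 in the interaction.

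Counts over all genes moved more. Without the fold threshold, 543 genes were called higher and 490 lower in GFP cells (against 274 and 93), 2633 and 2379 in NRF2 cells (1176 and 887), 724 and 398 with Cyss (237 and 35) and 2425 and 2551 without Cyss (1034 and 708). With it added to the interaction, 824 and 523 were called (1585 and 1084). DESeq2's Wald test called 91 higher and 14 lower with Cyss and 422 lower without Cyss. Scaling by library size called 1397 lower in NRF2 cells and 1981 in the interaction. An adjusted p under 0.05 left 17 lower with Cyss and 528 in the interaction, no filter gave 185 lower in GFP cells and 66 with Cyss, and all 12 libraries in the fit gave 21 with Cyss. With single libraries left out, the counts of genes called lower ranged from 55 to 133 in GFP cells, 15 to 56 with Cyss, 425 to 840 without Cyss and 482 to 1562 in the interaction, and those called higher from 142 to 254 with Cyss and 913 to 2119 in the interaction.

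The study names no pairing by replicate number, and deviations of same-numbered libraries correlated only between -0.083 and 0.168. In NRF2 cells each library without Cyss was nonetheless most like the same-numbered library with Cyss (0.038, 0.086 and 0.067). In the other comparisons this held for some libraries only, so weak correlations leave pairing unsettled. With the replicate block, edgeR called 1 member higher in GFP cells, 1 higher and 3 lower in NRF2 cells, 0 with Cyss, 3 lower without Cyss and 3 lower in the interaction, as without it. Depth limits what can be said of ID4. The cause of the other changes was not tested.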
